A study of Mus musculus with 3 samples.

Results

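The genes described here are those of the lysosome: its soluble hydrolases and their cofactors, its membrane proteins and the proton pump that acidifies it. They were chosen by name, as 37 listed symbols plus the 23 protein-coding genes whose symbols start with Atp6v0 or Atp6v1, giving 60 of the 55536 genes measured; cathepsins were left out. The cells were bone-marrow-derived macrophages (BMDM), primary cells grown from the marrow of C57BL/6J mice, stimulated for 30 min with Lipid A at 100 ng/ml. Lipid A, the lipid anchor of bacterial endotoxin, is sensed by the receptor complex TLR4/MD-2. Total RNA of their cytosolic fraction (input 1 µg) was depleted of rRNA and sequenced as fragments between 250 and 400 nt long. There is 1 group of 3 libraries, replicates 1, 2 and 3, with 23403552, 50435201 and 35785896 expected counts on genes. The labels call them biological replicates but give all 3 the same donor record, and age and sex were not collected. Errors are SD over the 3 libraries, a spread that may in part be technical. In bulk RNA, fewer cells of a type and less RNA per cell cannot be told apart. Unstimulated cells and other fractions were not analysed here, so the values are levels in stimulated cells and say nothing of induction.

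Lysosomes break down material taken up by endocytosis and phagocytosis, or delivered by autophagy, with acid hydrolases that are inactive or slow at neutral pH. The low pH is set by the vacuolar ATPase, in which a cytosolic V1 sector hydrolyses ATP and drives rotation of a membrane-embedded V0 sector that carries protons into the lumen. Transcription factors of the TFEB family (TFEB, TFE3, MITF) bind E-boxes in the promoters of many lysosomal genes, and macrophages, as professional phagocytes, are rich in lysosomes.

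E-boxes stood just before the start of several of these genes. The motif CACGTG, which reads the same on both strands, was searched in RefSeq promoter windows of 300 bases (250 before to 50 after the annotated start, build GRCm38.p6), which 53 of the 60 genes had. It was found in 14 of 53 genes (26.4%), against 8.09% of all 27025 genes of the table and 12.7% of 7541 protein-coding genes with a mean of 1 TPM or more here. TPM is a level scaled by transcript length and by the total of the library. The longer form TCACGTGA, which contains the shorter one, was found in 6 of 53 (11.3%), against 1.12% of all genes and 2.53% of those at 1 TPM or more. Of the 53 lysosomal genes with a window, 46 had a mean of 1 TPM or more. Among these 46 the shorter form was in 14 (30.4%) and the longer in 6 (13.0%). These are shares of genes with a match in a fixed window, and a match is not a bound site. The mean GC content of the windows was 56.4% for the lysosomal genes, 53.8% for all genes and 60.8% for protein-coding genes at 1 TPM or more. The stretches around the 8-letter matches are shown because they carry this pattern, with the E-boxes in capitals, together with Lamp1, which had 4 copies of the 6-letter motif, at 61, 45, 28 and 15 bases before its start.
Lamp1, chr8:13159080-13159171, + strand: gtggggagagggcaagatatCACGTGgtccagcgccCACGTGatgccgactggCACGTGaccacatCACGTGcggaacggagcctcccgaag
Mcoln1, chr8:3500433-3500520, + strand: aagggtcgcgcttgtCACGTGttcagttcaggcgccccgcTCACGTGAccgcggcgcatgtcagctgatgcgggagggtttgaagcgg
Cln3, chr7:126583311-126583398, - strand: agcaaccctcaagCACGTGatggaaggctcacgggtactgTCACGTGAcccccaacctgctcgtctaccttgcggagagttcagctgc
Gla, chrX:134601186-134601255, - strand: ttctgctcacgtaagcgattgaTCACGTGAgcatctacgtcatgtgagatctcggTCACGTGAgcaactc
Atp6v1a, chr16:44139344-44139431, - strand: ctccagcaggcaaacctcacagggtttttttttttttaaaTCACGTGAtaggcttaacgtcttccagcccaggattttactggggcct
Atp6v0d1, chr8:105566045-105566108, - strand: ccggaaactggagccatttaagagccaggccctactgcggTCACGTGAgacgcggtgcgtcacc
Atp6v0e, chr17:26676358-26676415, + strand: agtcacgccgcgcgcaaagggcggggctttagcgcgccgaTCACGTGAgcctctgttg

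Besides Lamp1, the genes Atp6v0b, Cln3, Gla and Mcoln1 held more than 1 copy of the 6-letter motif, and Gla held 2 copies of the 8-letter form, 228 and 195 bases before its start. In Atp6v0d1 and Atp6v0e, which encode the d and e subunits of the membrane sector, the 8-letter match lay at the start site itself, its first base 4 bases before and 2 bases after it. The other genes with a 6-letter match were Arsa, Atp6v0b, Gaa, Glb1, Lgmn, Naglu and Sgsh. By role, matches were found in 3 of 8 membrane proteins, 3 of 8 sphingolipid hydrolases with a window and 2 of 6 glycosaminoglycan hydrolases. Of pump genes with a window, 3 of 7 in V0 and 1 of 10 in V1 had a match. The other hydrolase groups had 1 each, and neither accessory gene had one. No window was available for Asah1, Atp6v0a2, Atp6v0d2, Atp6v1b2, Atp6v1c1, Atp6v1g1 or Atp6v1h, all at 1 TPM or more. The 10 V1 genes searched included 5 with a mean under 1 TPM. Psap and Grn, which were among the most abundant transcripts of the set, had none in their windows.

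**Figure D1:**
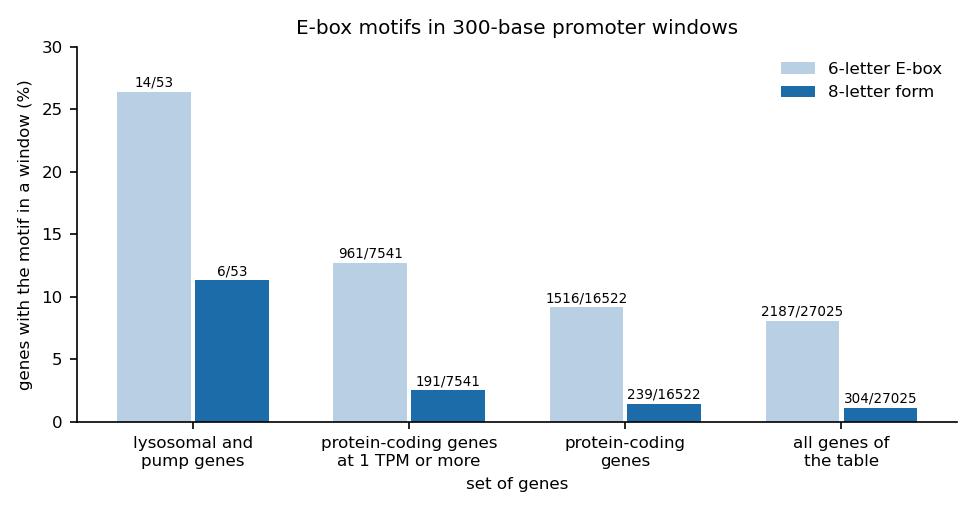
Share of genes (%, y axis) with the 6-letter E-box (light bars) or its 8-letter form (dark bars) in a 300-base promoter window, for 4 sets of genes (x axis); counts of genes stand above the bars. The 6-letter motif was in 14 of 53 lysosomal and pump genes.

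Most of the 60 genes were well expressed. A mean of 1 TPM or more was reached by 53, of 10 TPM or more by 46 and of 100 TPM or more by 17. The median of log2(TPM + 1) over the 60 genes was 5.37, 5.71 and 5.44 in replicates 1, 2 and 3 (5.51 ± 0.18), where the median over all 22015 nuclear protein-coding genes was 0.23 ± 0.02 and over the 9403 at 1 TPM or more 3.11 ± 0.30. Ranked by mean TPM among nuclear protein-coding genes, 7 of the 60 were in the top 100 and 32 in the top 1000. Together they held 4.08%, 3.50% and 4.57% of the TPM of nuclear protein-coding genes, 4.05 ± 0.54%. Without Psap alone the share was 2.24%. TPM was highest in replicate 2 for 43 of the 53 genes at 1 TPM or more; nuclear protein-coding genes as a whole held 34.4% of the TPM there, against 22.3% in replicate 1 and 24.3% in replicate 3, the rest going to other RNAs. Relative to that protein-coding total, replicate 2 was highest for 9 of the 53 and lowest for 34, so orders of libraries are read from counts below, not from TPM.

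**Figure D2:**
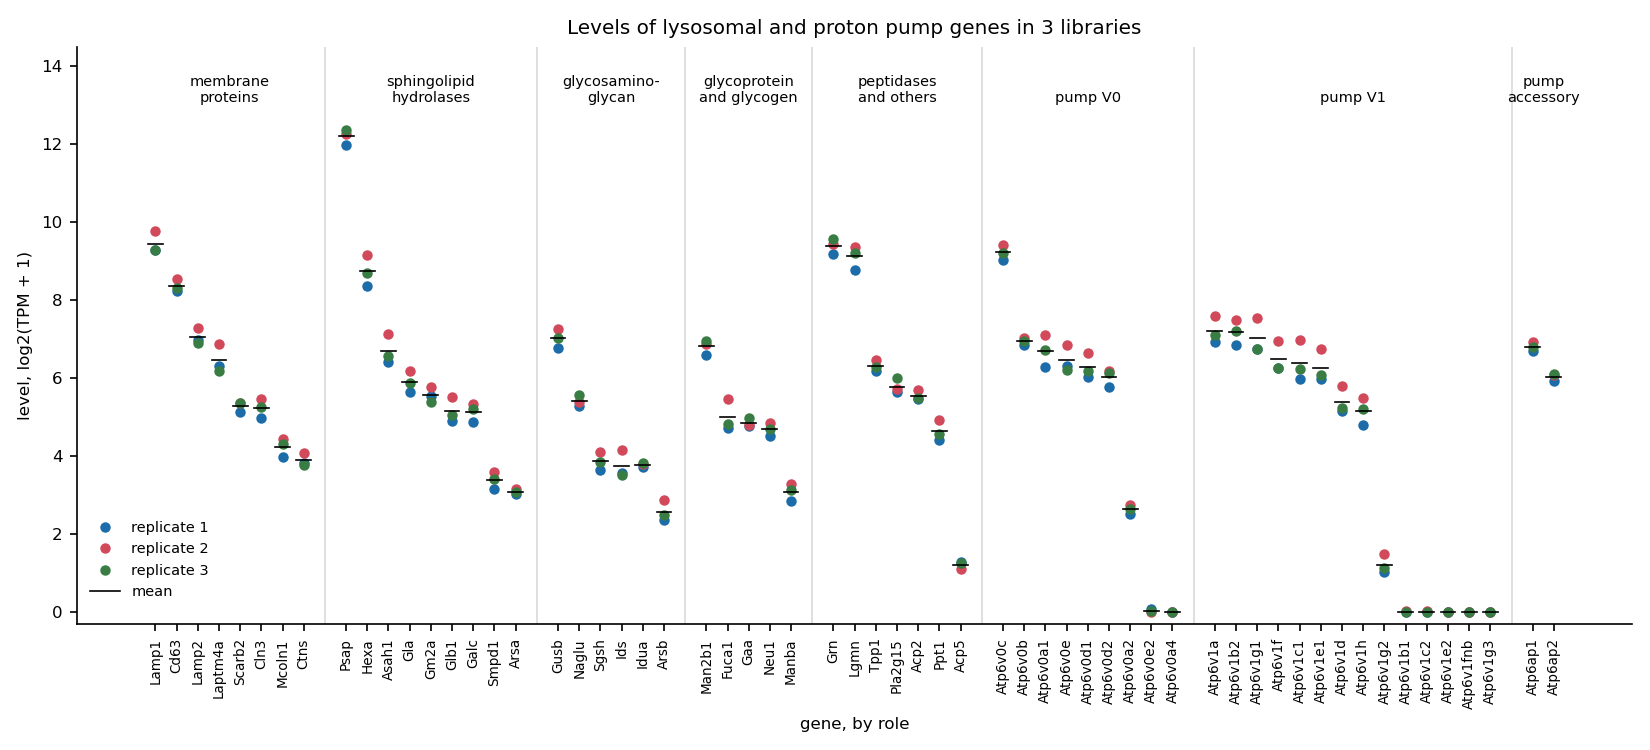
Level of each of the 60 genes as log2(TPM + 1) (y axis), by role and by mean level within a role (x axis); points are the 3 libraries and the black line their mean. Psap stands above all others, and 7 pump genes lie at or near 0.

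Among membrane proteins, Lamp1, which encodes an abundant glycoprotein of the lysosomal membrane, led. Lamp1 (ENSMUSG00000031447.7, chromosome 8, 13159161 to 13175338, build mm10) had 623, 872 and 629 TPM in replicates 1, 2 and 3. Cd63, a tetraspanin of late endosomes and lysosomes, had 301, 373 and 320 TPM, and Lamp2 125, 156 and 119 TPM. Lamp1 exceeded Lamp2 in every library, 5.29 ± 0.31 times as high. Ctns, the cystine exporter mutated in cystinosis, was the lowest of the 8 membrane genes at 13.2, 16.0 and 12.6 TPM, so the groups of values of Lamp1 and Ctns were far apart in every library. Between them lay Laptm4a, Scarb2 (the receptor that carries glucocerebrosidase to lysosomes), Cln3 and Mcoln1 (the calcium channel TRPML1), from 89.3 ± 24.4 down to 18.1 ± 2.94 TPM.

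Sphingolipid degradation was led by Psap, the precursor of the saposins, small proteins that lift lipids to their hydrolases. Psap (ENSMUSG00000004207.14, chromosome 10, 60277627 to 60302597) had 4057, 4945 and 5268 TPM and was the 4th most abundant nuclear protein-coding gene. Hexa, the alpha chain of beta-hexosaminidase, had 329, 571 and 412 TPM, and Asah1, acid ceramidase, 83.8, 140 and 93.6 TPM. Arsa, arylsulfatase A, was the lowest of the 9 genes, at 7.09, 7.98 and 7.50 TPM. Gla (alpha-galactosidase A), Gm2a (the GM2 activator), Glb1 (beta-galactosidase), Galc (galactocerebrosidase) and Smpd1 (acid sphingomyelinase) lay between 59.4 ± 11.6 and 9.59 ± 1.59 TPM.

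Glycosaminoglycan hydrolases were the lowest role by median, with a median log2(TPM + 1) of 3.88 ± 0.23. Gusb, beta-glucuronidase, stood above the others of this role at 108, 153 and 130 TPM. Naglu, which removes N-acetylglucosamine from heparan sulfate, had 38.0, 40.7 and 46.8 TPM and Sgsh, heparan N-sulfatase, 11.6, 16.2 and 13.3 TPM. The iduronate enzymes Ids and Idua both had a mean of 12.7 TPM. Arsb, arylsulfatase B, was lowest at 4.12, 6.37 and 4.60 TPM; 32.3% of its exon bases are also exon of the non-coding gene Gm26527 on the other strand, and whether counting used the strand is not given in the sources used here.

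For glycoproteins and glycogen, the alpha-mannosidase gene Man2b1 led with 95.9, 117 and 124 TPM. Fuca1, alpha-fucosidase, had 25.4, 42.8 and 27.2 TPM and Gaa, the acid alpha-glucosidase deficient in Pompe disease, 26.1, 26.7 and 30.5 TPM. Neu1, the sialidase, followed with a mean of 24.9 ± 3.05 TPM. Manba, beta-mannosidase, was lowest at 6.25, 8.65 and 7.81 TPM, below the other 4 genes in every library.

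Among peptidases, phosphatases and related genes, 2 stood above 100 TPM. Grn, whose product progranulin is cut into granulins in the lysosome, had 582, 700 and 753 TPM. Lgmn, the asparaginyl endopeptidase legumain, had 437, 662 and 597 TPM and Tpp1, the tripeptidyl peptidase of a neuronal ceroid lipofuscinosis, 71.1, 87.7 and 77.4 TPM. The phospholipase gene Pla2g15, the acid phosphatase gene Acp2 and the thioesterase gene Ppt1 lay between 54.5 ± 7.75 and 24.1 ± 4.57 TPM. Ppt1 shares 3.51% of its exon bases with Cap1, a gene on the other strand at 120 TPM. Acp5, the tartrate-resistant acid phosphatase used as an osteoclast stain, was the lowest hydrolase at 1.41, 1.15 and 1.38 TPM, resting on 74, 97 and 102 counts.

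In the proton pump, 1 gene dominated for most subunits that have several, while subunits a and d were each shared between a pair of genes. Of the 23 genes with Atp6v0 or Atp6v1 symbols, 16 had a mean of 1 TPM or more. The remaining 7 were Atp6v0a4, Atp6v0e2, Atp6v1b1, Atp6v1c2, Atp6v1e2, Atp6v1g3 and Atp6v1fnb, which is a neighbour of Atp6v1f caught by the name rule. Atp6v0a4, Atp6v1e2, Atp6v1g3 and Atp6v1fnb had 0 counts in every library, and a count of 0 allows up to 3 counts, or 0.128, 0.0595 and 0.0838 CPM (counts scaled to the library total) in replicates 1, 2 and 3. Atp6v1b1 and Atp6v1c2 had 1 count each, in replicate 2, and Atp6v0e2 had 4, 0 and 1.

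The V0 sector holds the proton-carrying ring. Atp6v0c, which encodes the c subunit present in several copies per ring, had 527, 689 and 591 TPM and was the highest pump gene in each library. Its processed pseudogene Atp6v0c-ps2 was listed at 3.93 ± 1.89 TPM, and reads shared between such copies are divided by the authors' estimator. Atp6v0b, encoding the related c″ subunit, had 115, 129 and 123 TPM, and Atp6v0c was 4.90 ± 0.39 times as high. Subunit e came from Atp6v0e, with 78.8, 114 and 72.7 TPM.

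Subunit a, the stator that lines the proton path and helps to set where the pump resides, came nearly equally from a pair of genes. Atp6v0a1 had 77.2, 138 and 105 TPM; Tcirg1, which encodes the a3 form and carries another name, had 89.4, 115 and 117 TPM. Atp6v0a1 made up 48.1 ± 4.4% of the subunit's TPM and Tcirg1 49.5 ± 4.2%, with Tcirg1 higher in replicates 1 and 3 and Atp6v0a1 in replicate 2, so their order could not be told from the spread. Atp6v0a2 had 4.69, 5.70 and 5.21 TPM, or 2.41 ± 0.28%; Atp6v0a1 was 20.2 ± 3.8 times as high.

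Subunit d, which joins the ring to the central stalk, was likewise shared. Atp6v0d1 had 64.2, 99.0 and 72.2 TPM and Atp6v0d2, a form known from osteoclasts and macrophages, 54.0, 72.2 and 69.5 TPM. Atp6v0d1 was the higher in each library, 1.19, 1.37 and 1.04 times, and supplied 54.4 ± 3.4% of the subunit's TPM. Flipping the signs of the within-library differences in an exact permutation test (two-sided) gave p = 0.25, the smallest that 3 libraries allow, for this pair, for Atp6v0a1 against Atp6v0a2 and for the leading gene against a paralogue in subunits e, B, C, E and G. For Tcirg1 against Atp6v0a1 the same exact test gave p = 1. With 3 libraries no such comparison can pass 0.05. In the osteoclast marker list, 3 of 9 genes reached 1 TPM (Nfatc1, Itgb3 and Ctsk), the summed level was 15.8, 26.2 and 17.6 TPM, and Calcr and Oscar had 0 counts in every library. Of 10 macrophage markers, 9 reached 10 TPM and Cx3cr1 did not, at 0.143 ± 0.047 TPM.

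The leading genes of the V1 subunits ranged from 150 ± 37.5 TPM for subunit A to 35.7 ± 8.44 TPM for subunit H. The catalytic A subunit gene Atp6v1a had 120, 192 and 137 TPM and Atp6v1b2, the widely expressed B subunit gene, 114, 179 and 148 TPM. A and B subunits alternate in the V1 head, and their genes had a ratio of 1.06, 1.07 and 0.93, a mean of 1.02 ± 0.08. Atp6v1g1 had 107, 186 and 107 TPM and supplied 99.0% of the TPM of subunit G; Atp6v1g2 supplied 0.995 ± 0.079%, at 1.02, 1.79 and 1.18 TPM. Atp6v1f had 75.2, 123 and 76.3 TPM, Atp6v1c1 61.6, 124 and 74.2 TPM and Atp6v1e1 61.6, 106 and 67.2 TPM. Atp6v1d, encoding the D subunit of the rotor, had 34.5, 55.1 and 36.8 TPM. By gene total, Atp6v1h, the regulatory H subunit, was the lowest single-gene subunit at 27.0, 43.9 and 36.0 TPM. Non-coding transcripts held 52.6 ± 11.0% of the TPM of Atp6v1d and 2.08 ± 1.47% of that of Atp6v1h, so this is not their order in coding RNA. The accessory genes Atp6ap1 (102, 121 and 110 TPM) and Atp6ap2 (59.8, 66.5 and 67.4 TPM), which serve pump assembly, fell within the range of the V1 subunits.

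**Figure D3:**
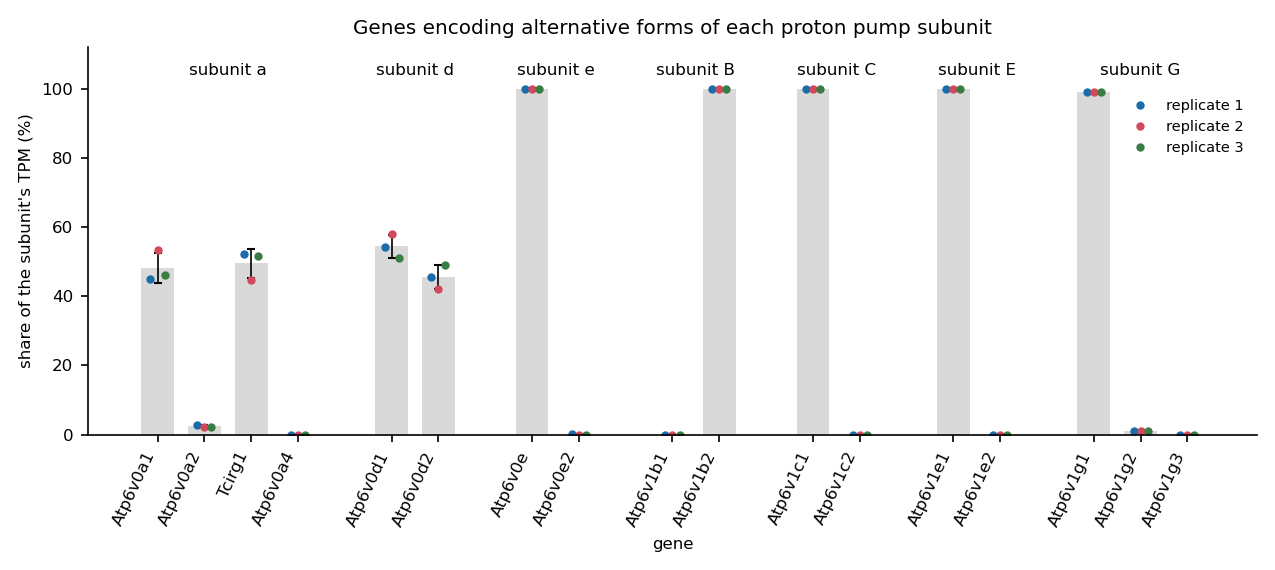
Share of a subunit's TPM (%, y axis) that each gene supplied, for the 7 subunits with several genes (x axis); bars are means, error bars SD and points the 3 libraries. Subunits a and d were each divided between a pair of genes, and the others came from 1 gene for 99.0% or more.

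Genes that work with these in lysosome biogenesis were read from lists fixed by name. All 18 other lysosomal genes had 1 TPM or more: the acid lipase gene Lipa (266 ± 28.8 TPM) and the cholesterol carrier gene Npc2 (235 ± 41.2 TPM) were highest and Mfsd8 lowest (2.50 ± 0.43 TPM). All 9 genes of mannose-6-phosphate tagging and sorting, which delivers hydrolases to lysosomes, did so too, led by the receptor gene M6pr (74.4 ± 12.2 TPM) and Gga1 (20.0 ± 2.04 TPM), with Gga3 lowest at 7.52 ± 2.81 TPM. So did all 15 genes of the TFEB family and of mTORC1 signalling at the lysosome, where Rragc (81.9 ± 24.9 TPM) and Lamtor1 (77.9 ± 21.5 TPM) were highest and Mtor lowest (4.21 ± 0.62 TPM). Within that list the E-box binding factors had 30.0 ± 7.39 (Tfe3), 11.2 ± 1.32 (Tfeb) and 10.6 ± 2.36 TPM (Mitf). All 9 pump genes with other names were above 1 TPM, from Rnasek (118 ± 23.5 TPM) and Tcirg1 (107 ± 15.4 TPM) to Rogdi (3.42 ± 0.35 TPM).

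Transcript composition differed between members. The leading annotated transcript held 90% or more of the gene's TPM in 32 of the 53 genes at 1 TPM or more, and was the same transcript in both transcript tables in all 53. Leading shares below 50% occurred in 2 genes, Cln3 and Lamp2. Lamp2 (chromosome X, 38401357 to 38456454) has alternative last exons that give LAMP-2A, the receptor of chaperone-mediated autophagy, LAMP-2B and LAMP-2C, told apart here by the ends of the reading frames of Lamp2-201, Lamp2-202 and Lamp2-203. LAMP-2A took 47.5%, 57.4% and 44.5% of the TPM and LAMP-2B 51.2%, 42.0% and 54.1%, while LAMP-2C took 0.299 ± 0.046%. The order of A and B changed between libraries, so these forms were not distinguishable in level. In the second table LAMP-2A had 53.5 ± 5.8% and LAMP-2B 45.3 ± 5.3%.

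Cln3, the gene of juvenile neuronal ceroid lipofuscinosis, was the most divided: of its 19 annotated transcripts Cln3-203 had 24.7%, 7.86% and 24.3% and Cln3-204 22.9%, 20.1% and 11.5%. Cln3-203 was the higher in replicates 1 and 3 and Cln3-204 in replicate 2, and their means of 19.0 ± 9.6% and 18.2 ± 5.9% did not differ beyond the spread. In the second table they had 27.2 ± 5.7% and 3.18 ± 2.85%. Non-coding transcripts held 30.8 ± 6.8% of its TPM, and 7.65% of its exon bases are shared with Apobr, a gene on the other strand at 19.9 TPM. Psap was divided between Psap-202 (54.2%, 42.9% and 65.3%) and Psap-203 (43.3%, 55.0% and 32.2%), both protein-coding, with the order reversed in replicate 2. In the second table Psap-202 had 61.7 ± 14.4%.

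In 2 of the 53 genes the leading transcript was annotated as a retained intron, a non-coding form that keeps intronic sequence. Atp6v1d-202 (775 nt, chromosome 12, 78843002 to 78845391, within the gene's span of 78840725 to 78861638) held 57.9%, 39.6% and 58.3% of the TPM of Atp6v1d, against 40.7%, 60.0% and 41.4% for the 3667-nt coding transcript. The second table gave it 62.7 ± 4.8%. Since TPM is per length, a short transcript needs few reads for such a share. Arsa-201 (2699 nt, chromosome 15, 89472528 to 89476113) held 65.3 ± 4.0% of the TPM of Arsa, and 61.95 ± 4.04% in the second table. Across the 46 members at 10 TPM or more, retained-intron transcripts held a median of 0.276% of a gene's TPM, where the median over 3961 nuclear protein-coding genes at that level was 0.423%; shares over 10% occurred in 1 member (Atp6v1d) and in 10.4% of those genes. In the second table they occurred in 5 members (Atp6v1d, Acp2, Asah1, Tpp1 and Cln3) and in 12.1% of genes. For all non-coding transcript types the medians were 0.831% and 1.82%, with 7 of 46 members and 24.9% of genes over 10%. Besides Atp6v1d and Cln3 these were Atp6v0a1, Fuca1, Gusb, Sgsh and Tpp1, at 10.7% to 16.7%. Fuca1 (21.9% in replicate 2, at most 5.15% in the others) and Sgsh (20.0%, at most 8.41% in the others) passed 10% through replicate 2 alone. In the second table shares over 10% occurred in 9 members and in 30.8% of genes: Gusb (1.97%) and Sgsh (6.71%) were not among them, and Asah1 (39.2%), Acp2 (21.5%), Man2b1 (20.7%) and Atp6v1c1 (11.1%) were. The non-coding shares of single genes thus depended on the table.

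**Figure D4:**
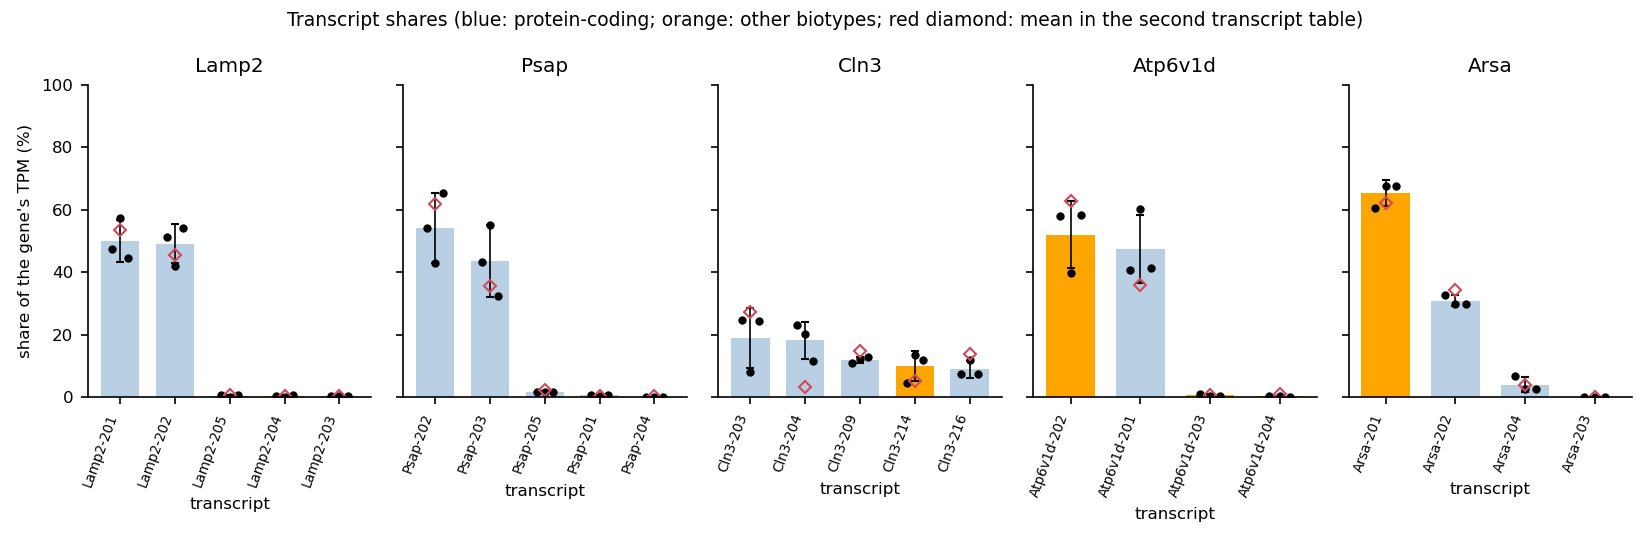
Share of a gene's TPM (%, y axis) held by its leading annotated transcripts (x axis) for 5 genes; bars are means, error bars SD, black points the 3 libraries and red diamonds the mean in the second transcript table. In Atp6v1d and Arsa the leading bar is a retained-intron transcript (orange).

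The libraries differed in counts by more than sampling for nearly all of these genes, as for most genes counted as deeply, but by small amounts. A chi-square test set the counts of each gene against Poisson noise, with TMM-scaled library sizes and Benjamini-Hochberg adjustment at 0.05. Of the 60 genes, 53 reached its minimum mean count of 10 and 50 were called, against 67.9% of all 13237 genes tested. The 3 genes not called were Ppt1, Fuca1 and Arsb. Deeply counted genes are called more often: at a mean count of 1000 or more, 48 of 51 members and 4495 of 5163 genes were called. Without replicate 2, 29 of the 53 members were called, against 33.4% of all genes. Without replicate 1 it was 47, against 56.7%, and without replicate 3 it was 41, against 53.0%. These shares of all genes are not matched to the members for depth. By size, the highest library exceeded the lowest by more than 1.5-fold in 3 members, against 27.2% of all genes tested, and against 8.64% of genes at 1000 counts or more, where it was 2 of 51 members. These 3 were Acp5 (1.78-fold), Pla2g15 (1.62-fold) and Naglu (1.52-fold). The median biological coefficient of variation (edgeR, tagwise) was 12.65% for the 53 genes, 17.47% for all genes tested and 12.15% for genes at 1000 counts or more.

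The 5 members with the highest tagwise dispersion among those called were Acp5, Atp6v1g2, Pla2g15, Atp6v1d and Naglu. Acp5 and Atp6v1g2 had the fewest counts of the members tested, and Atp6v1g2 passed the chi-square test narrowly (adjusted p = 0.048). Pla2g15 had 245, 179 and 290 TMM-scaled CPM in replicates 1, 2 and 3 and Naglu 181, 133 and 202 CPM, both lowest in replicate 2. Acp5 had 3.24, 1.82 and 2.94 CPM, again lowest in replicate 2. Atp6v1d had 121, 176 and 119 CPM and Atp6v1g2 1.93, 2.64 and 1.87 CPM, both highest in replicate 2. These last values rest on 44.1, 141 and 65 counts of Atp6v1g2, whose exons overlap those of Nfkbil1 on the other strand (5.74% of its exon bases). Nfkbil1 had 3.74, 6.75 and 5.64 TPM, above Atp6v1g2 in each library, and whether its reads entered these counts was not tested.

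The direction of these differences varied with role. On log2 CPM relative to each gene's mean over libraries, the median of the 53 members was 0.01, -0.11 and 0.07 in replicates 1, 2 and 3, and that of all genes tested -0.02, 0.03 and -0.01. The members' values depended on the scaling: library totals alone gave -0.03, -0.03 and 0.02, and the second table -0.02, -0.04 and 0.03. Replicate 2 was the lowest library for 32 of the 53 members and the highest for 14, whereas it was the lowest for 4355 and the highest for 5869 of all 13237 genes. Each role other than V1 had its lowest median in replicate 2: -0.16 in membrane proteins, -0.15 in peptidases and related genes, -0.13 in V0 and -0.23 in the 2 accessory genes. The V1 sector ran the other way, with medians of -0.12, 0.14 and -0.08; 7 of its 9 tested genes were highest in replicate 2 and none lowest there, while 7 of the 44 other members were highest there and 32 lowest. Another scaling shifts all genes of a library nearly alike, so it moves these medians together and cannot change their order. With library totals alone the medians in replicate 2 were 0.22 for V1, -0.06 for the other members and 0.12 for all genes tested. DESeq2 size factors gave 0.11, -0.17 and 0.00. Counts of the second table, another quantification of the same libraries, kept the order with 0.21, -0.07 and 0.10. These are counts over genes that share 3 libraries, with no test of the difference between sectors. Single V1 genes ran from -0.003 (Atp6v1b2) to 0.37 (Atp6v1d) in replicate 2. The TFEB family and mTORC1 list also had a median above 0 there (0.07), with 9 of its 15 genes highest. The other lysosomal genes had -0.09, the tagging and sorting genes -0.10 and the pump genes with other names -0.08. Stromal markers (10 genes) summed to 29.6 TPM in replicate 1 and to 0.25 and 0.22 TPM in replicates 2 and 3, and neutrophil markers (8 genes) to 27.0, 61.5 and 45.3 TPM; their part in the differences between libraries was not tested.

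**Figure D5:**
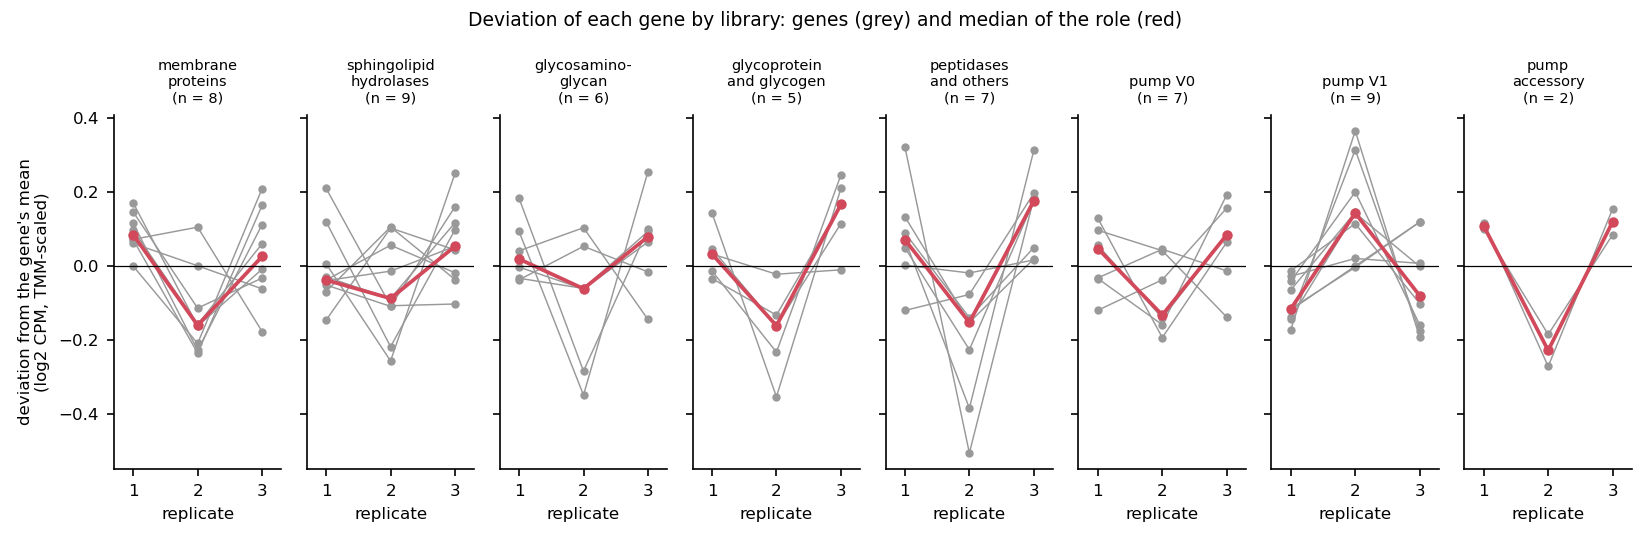
Deviation of each tested gene from its own mean over libraries (log2 of TMM-scaled CPM, y axis) in replicates 1, 2 and 3 (x axis), by role; grey lines are genes and red lines the median of the role. The V1 median is 0.14 in replicate 2, where the medians of the other roles are below 0.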

How the data were processed

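The series holds 3 libraries of 1 group; each has a table by gene, one by transcript and a further transcript table from another quantification, all made by the authors on build mm10 and annotation GENCODE M21, per the deposited readme texts. Which aligner and quantifiers were run, and whether strand was used, is not given in the sources used here. The expected counts the authors deposited are estimates in which a read that maps to several places is divided among them; they were rounded to whole numbers for tests. The deposited TPM values, scaled by length and library total, were used as given. Of 81881 gene rows, 26345 named no gene of the annotation (0.462%, 0.109% and 0.0969% of counts) and were left out.

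Each list was summarised by its median log2(TPM + 1) per library; the pseudocount of 1 understates differences of low genes. Between-library tests were chi-square tests against Poisson sampling on genes whose mean count was at least 10. The calculation was run on simulated counts with the Poisson noise and library sizes that the test assumes. That run does not cover error in the scaling or in the division of shared reads. edgeR 4.0.16 (R 4.3.3) gave TMM factors and dispersions and DESeq2 1.42.0 alternative ones. Deviations used a prior count of 0.5. Other steps used Python 3.11.15, pandas 2.3.3 and scipy 1.17.1. Promoters are RefSeq windows of GRCm38.p6, the same build as mm10. Floors of a count of 0 cover counting error only.

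The members, lists and tests were chosen with earlier results of these data known. Named are, per role, the 3 highest members and the lowest; every pump subunit gene; the 5 most dispersed that passed; the 3 that differed most between tables; and those whose leading transcript held under 50%. Of related lists, the 2 highest and the lowest are named; Psap transcripts, Arsa and Atp6v1d transcripts and other members were named after their values were seen. One related gene is not reported here.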

Additional observations from a re-analysis of the deposited data

How the results depend on the processing

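Of 206 values recomputed under alternatives, 171 stayed within the spread between libraries, within 1.5 times a count or in the same direction, and 35 moved. Many of the 171 could not have moved. Leaving out 1 of 3 libraries always shifts a mean by less than their SD, and cannot reverse a direction that all of them share. The count of 171 is therefore not a measure of stability. Reversal of direction was judged only for the 7 paralogue differences, and none reversed. Tcirg1 against Atp6v0a1 was not among them. Tcirg1 held 49.5% of subunit a in the gene table and 45.6 ± 4.3% in the second table, where Atp6v0a1 held 48.1% and 52.0 ± 4.1%. The median log2(TPM + 1) of the 60 genes went from 5.51 to 5.91 with only genes at 1 TPM or more, to 7.40 after rescaling to nuclear protein-coding genes and to 4.30 in the second transcript table. After that rescaling, a comparison chosen after seeing the data, the second table gave 7.49, within the SD of the gene table's 7.40. Members at 100 TPM or more went from 17 to 7 in the second table and to 39 after rescaling. The cut of 100 is not the same threshold on these scales. Rescaling raises every value, since nuclear protein-coding genes held 22.3%, 34.4% and 24.3% of the TPM in replicates 1, 2 and 3. The share of nuclear protein-coding TPM held by the 60 genes fell from 4.05% to 2.24% without Psap, also chosen after seeing the data. Members called between libraries numbered 29 to 47 when 1 library was left out, the lowest without replicate 2; the share of all genes called was then 33.4% to 56.7%, against 67.9% with all libraries. The directions of the 7 paralogue differences were kept under each alternative run. For another pseudocount and for leaving out 1 library this was fixed, because every library already had the same direction. Only the second table could have reversed them. With both tables rescaled in this way, the second exceeded the gene table by 0.38 for Cln3, 0.37 for Fuca1 and 0.27 for Asah1 (log2), the largest such differences among the 46 members at 10 TPM or more in either table. Members with over 10% in retained-intron transcripts went from 1 to 5 in the second table, also compared after seeing the data. No paired analysis was possible because there is 1 group. Genes at 0 to 4 counts cannot be ranked at this depth.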
